A study of Homo sapiens with 8 samples.

Results

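The 9 genes of MHC class I antigen presentation followed here were the heavy chains HLA-B, HLA-C, HLA-E and HLA-F, the light chain B2M, the peptide transporter subunits TAP1 and TAP2, the loading factor TAPBP and the regulator NLRC5. They were taken by gene symbol from a table of 18164 genes measured by RNA sequencing in 8 tumors, and all 9 were present. Each tumor was grown in the inguinal mammary fat pad of an NCG mouse from 1000000 injected cells of HCC1937, a line established from a human triple-negative breast cancer (TNBC). NMN tumors (n = 4) came from mice dosed at 500 mg/kg/day with NMN (nicotinamide mononucleotide, from which cells make NAD+), and Vehicle tumors (n = 4) from mice given vehicle. Treatment groups were formed once tumors measured 100 to 150 mm3. All hosts carried edited Prkdc and Il2rg genes on a NOD background, which leaves such mice without mature T, B and natural killer (NK) cells. The sex and age of the mice, the length of treatment and the route of dosing are not given in the sources used here. The labels number the tumors without saying that each came from its own mouse, so p-values measure the spread between these 8 tumors.

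Class I molecules display short peptides from inside the cell at its surface, where CD8+ T cells and NK cells inspect them. Cytosolic proteins are cut by proteasomes, the TAP1 and TAP2 transporter carries the peptides into the endoplasmic reticulum, tapasin (encoded by TAPBP) holds an empty heavy chain beside the transporter, and the heavy chain leaves for the surface with B2M and a bound peptide. Interferons raise the transcription of most of these genes, and NLRC5 is the transactivator that acts at class I promoters. Breast tumors are known to vary in how much of this machinery they transcribe.

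Values are TPM, transcript abundances scaled by length and to the same total in every library, so genes can be ranked within a tumor and read depth is unknown. Between 16451 and 16662 genes were above 0 per library. The summed TPM of 12 markers of the epithelial tumor cells was 12450 to 15600 in NMN tumors and 11530 to 19670 in Vehicle tumors, most of it from the keratins KRT5, KRT14 and KRT17. The summed TPM of 13 of the 16 listed T and NK cell markers was 7.10 to 9.71 in NMN tumors and 4.33 to 9.27 in Vehicle tumors, with GNLY at 0 in all 8 tumors. For B and plasma cells, 6 of the 8 listed markers summed to at most 0.62 TPM in any NMN tumor and 1.22 TPM in any Vehicle tumor. The other listed lymphocyte markers were not analysed here. Listed skeletal muscle genes summed to 96.0 to 99.6 TPM in NMN 1, NMN 2 and NMN 3 and to 722 TPM in NMN 4, against 484 to 2801 TPM in Vehicle tumors, so that NMN 4 lay with the Vehicle tumors in this measure. In NMN 1, NMN 2 and NMN 3 most of this sum came from MB and TNNI2, while ACTA1 was at 0.88, 0.36 and 1.16 TPM. ACTA1 was at 268 TPM in NMN 4 and at 178 to 1024 TPM in Vehicle tumors.

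All 9 genes were transcribed in all 8 tumors and all 9 passed the filter for testing, which was TPM of at least 1 in at least 4 tumors. Of the 9, 8 had a lower NMN mean and 1, HLA-F, the higher mean, but none of them passed the test. The limma test on log2(TPM + 1), with Benjamini-Hochberg adjustment over 13358 genes, called 0 of the 9 at adjusted p under 0.05, where it called 0.00% of all tested genes. At unadjusted p under 0.05 it also passed 0 of the 9, where 6.94% of all tested genes passed. Each of the 9 intervals of the fold change included 0, and in 0 of the 9 were the NMN values all apart from the Vehicle values, which was so for 3.05% of all tested genes. The median log2 fold change of the 9 was -0.23 and that of all tested genes was 0.0040. A negative fold change was seen in 49.0% of all tested genes, and one of -0.2 or lower in 5 of the 9 genes and in 10.2% of all tested genes. These are counts of genes measured in the same 8 tumors, and they carry no test.

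**Figure D1:**
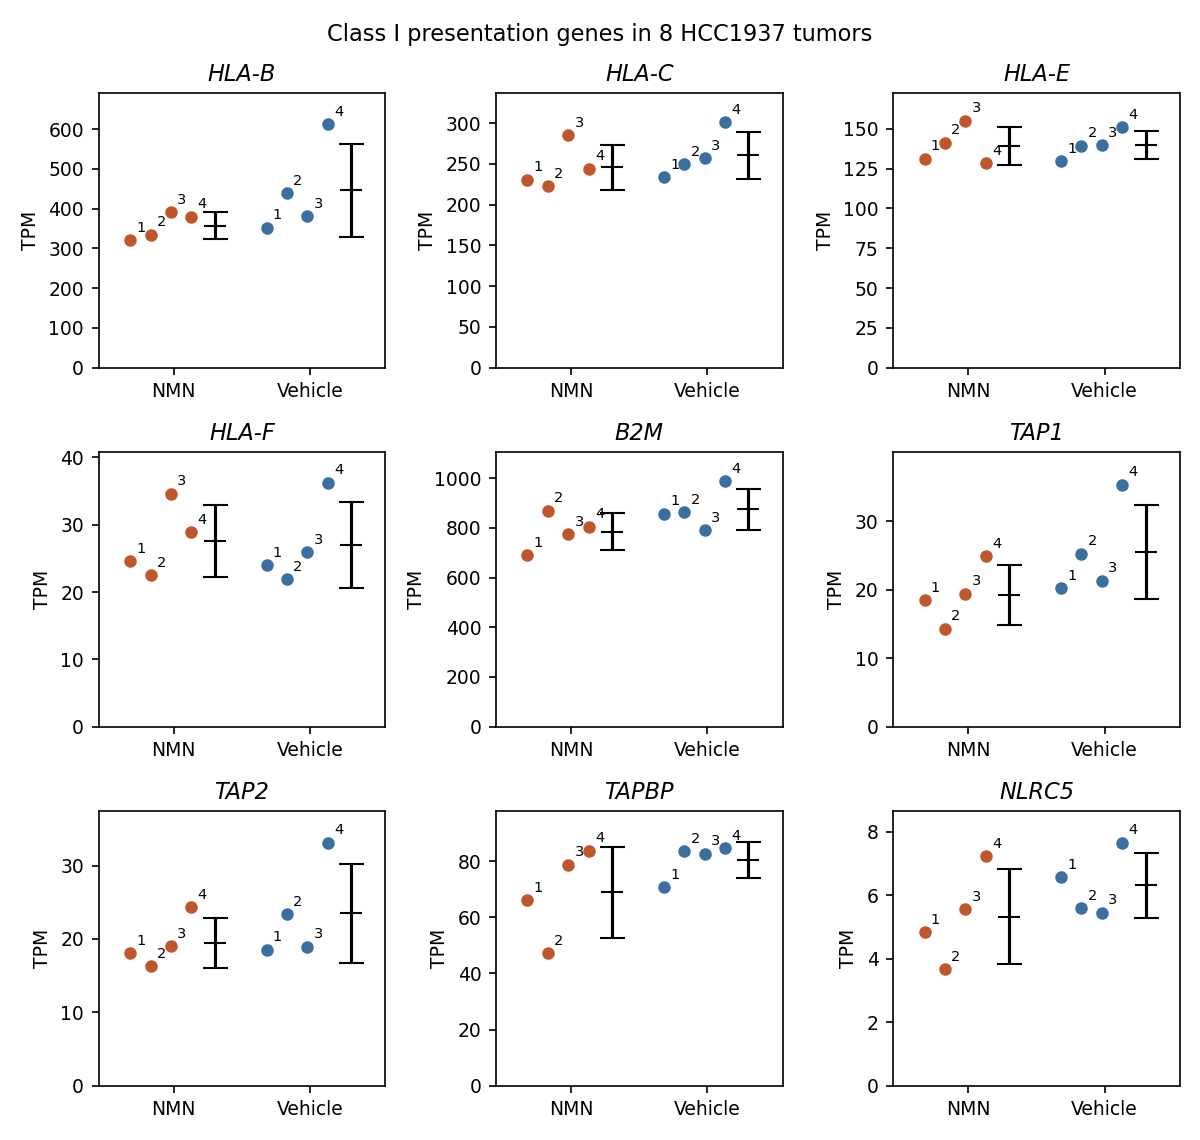
TPM of the 9 class I presentation genes in NMN tumors (orange) and Vehicle tumors (blue). Points are tumors with their replicate number, and the bar beside them is the mean ± SD (n = 4 each). Vehicle 4 is the highest point in 8 of the 9 panels, and the groups overlap in all 9.

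B2M was the most abundant of the 9 genes, and its mean lay at percentile 99.1 of all 18164 genes of the table, tested or not. HLA-B followed, then HLA-C and HLA-E, then TAPBP, and these levels were separate at each step, since the lowest tumor of one gene lay above the highest tumor of the next. HLA-F, TAP1 and TAP2 came next with ranges of 22.0 to 36.25, 14.3 to 35.3 and 16.3 to 33.1 TPM over the 8 tumors, which overlapped, so their order is not set by these data. NLRC5 was the lowest, between 3.67 and 7.65 TPM, and its mean lay at percentile 42.4 of the same 18164 genes. The genes also differed in how much they varied. TAP1 spanned a 2.47-fold range over the 8 tumors, NLRC5 a 2.08-fold range and TAP2 a 2.04-fold range, whereas HLA-E spanned a 1.21-fold range.

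Heavy chains were the first group. HLA-B and HLA-C encode classical heavy chains that present peptides to CD8+ T cells and serve as ligands of NK cell receptors. HLA-B was at 321, 335, 391 and 379.9 TPM in NMN 1 to NMN 4, against 352, 439, 381 and 613 TPM in Vehicle 1 to Vehicle 4. Vehicle 4 stood well above every other tumor, NMN 1 and NMN 2 lay below all Vehicle tumors, and NMN 3 and NMN 4 lay among the Vehicle tumors. The means were 357 ± 34.0 TPM in NMN tumors versus 446 ± 117 TPM in Vehicle tumors (SD, n = 4 each). The log2 fold change was -0.29 ± 0.16 (SE), with a 95% interval of -0.63 to 0.05 and an adjusted p of 0.805 by limma. Without Vehicle 4 the log2 fold change of HLA-B was -0.13.

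HLA-C differed less between the groups. Its values were 230.3, 223, 285 and 244 TPM across NMN tumors, against 234, 249, 257 and 301 TPM in Vehicle tumors. NMN 3 was the second highest of all 8 tumors, and the other NMN tumors were at or below the middle. The means were 245 ± 27.7 and 260.4 ± 28.97 TPM in NMN and Vehicle tumors, with a log2 fold change of -0.09 ± 0.11 and an adjusted p of 0.957 by limma.

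HLA-E and HLA-F are nonclassical heavy chains. HLA-E presents mainly leader peptides of other class I chains to the NK receptor pair of CD94 and NKG2A, and HLA-F can reach the surface without peptide and is bound by NK cell receptors. HLA-E measured 131, 141, 155 and 128 TPM across NMN tumors, against 129.5, 139, 139.9 and 151 TPM in Vehicle tumors. NMN tumors held both the highest and the lowest value, and the means were 139 ± 12.0 and 139.9 ± 8.75 TPM in NMN and Vehicle tumors. The 95% interval of its log2 fold change ran from -0.22 to 0.19, the narrowest of the 9 genes. HLA-F measured 24.6, 22.5, 34.6 and 28.85 TPM across NMN tumors, against 24.0, 22.0, 25.9 and 36.25 TPM in Vehicle tumors. All 4 NMN values fell inside the Vehicle range, with a log2 fold change of 0.04 ± 0.17 and an adjusted p of 0.991 by limma. The sign of the difference of HLA-E and of HLA-F changed when single tumors were left out.

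Summed over the 4 heavy chains, the level was 707, 721, 866 and 781 TPM across NMN tumors, against 739.8, 849.9, 804 and 1101 TPM in Vehicle tumors. HLA-G was read with the class I-like genes, and further class I heavy chains were not analysed here. Of the 50-base words of these 4 genes' reference transcripts, 1.25% (HLA-F) to 6.17% (HLA-C) also occur in other genes, and how far the alleles of HCC1937 depart from the reference was not tested. The ratio of HLA-B to HLA-C was 1.394, 1.504, 1.373 and 1.556 in NMN tumors, against 1.506, 1.762, 1.483 and 2.032 in Vehicle tumors, and the groups overlapped. The exact two-sided permutation test of its log2 value gave p = 0.143, or 0.238 adjusted over the 5 ratios examined. HLA-B to HLA-E averaged 2.575 in NMN tumors and 3.165 in Vehicle tumors, with p = 0.114 by the same exact permutation test (adjusted 0.238). In bulk tissue, fewer cells of a type and less RNA per cell cannot be told apart in any of these levels.

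The promoters of HLA-B and HLA-C are shown because the genes are near copies of each other and stood furthest apart in Vehicle 4, where HLA-B was at 1.91 times its lowest tumor and HLA-C at 1.35 times its lowest tumor. HLA-B lies on the minus strand of chromosome 6 at chr6:31269491-31357188 and HLA-C on the same strand at chr6:31268749-31272130 (GENCODE 29, GRCh38), and the annotated span of HLA-B includes a transcript that reaches over HLA-C. The sequences come from RefSeq (GRCh38.p14), which held windows for 7 of the 9 genes, all but HLA-E and NLRC5. Each line runs 5′ to 3′ on the gene's own strand over 270 bases, 250 before the start site and 20 from it on, at chr6:31357160-31357429 for HLA-B and chr6:31272073-31272342 for HLA-C. Capitals mark motif matches found on both strands of the window.
HLA-B: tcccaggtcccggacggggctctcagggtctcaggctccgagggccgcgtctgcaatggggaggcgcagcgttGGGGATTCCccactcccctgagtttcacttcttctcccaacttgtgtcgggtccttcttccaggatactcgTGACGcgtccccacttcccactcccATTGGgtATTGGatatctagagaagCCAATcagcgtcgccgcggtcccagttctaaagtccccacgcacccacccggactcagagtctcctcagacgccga
HLA-C: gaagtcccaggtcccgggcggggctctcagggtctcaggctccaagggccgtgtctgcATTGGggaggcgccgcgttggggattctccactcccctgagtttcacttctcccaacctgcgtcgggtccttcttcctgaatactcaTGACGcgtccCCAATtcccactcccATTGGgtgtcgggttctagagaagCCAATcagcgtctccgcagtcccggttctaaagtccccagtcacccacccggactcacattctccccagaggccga
Over the full windows of 300 bases, which end 50 bases after the start site, the alignment of HLA-B and HLA-C was 88.5% identical and those with HLA-F 79.2% and 78.5% identical. Among the letters searched were GAAA followed by any 2 bases and GAAA for an interferon-stimulated response element (ISRE), GGGNNTTCC for a kappaB site, CCAAT for a Y box and TGACG for the core of the X2 box of class I enhancers. Of 35116 RefSeq promoter windows, 3.57% held the ISRE letters, 6.58% the kappaB letters, 34.6% the Y box letters and 24.6% the X2 core letters. Counting the start site as position 0, HLA-B held a kappaB match at -177 to -169, whereas HLA-C held none. Both held an X2 core match, at -106 to -102 in HLA-B and -105 to -101 in HLA-C, and several Y boxes. HLA-F held an ISRE match at -156 to -147. A match is a description of the letters in the window.

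B2M, the light chain shared by all these heavy chains, measured 691, 870.1, 775 and 805 TPM across NMN tumors, against 857, 864, 789.9 and 989 TPM in Vehicle tumors. NMN 1 was the lowest and Vehicle 4 the highest, and NMN 2 lay above Vehicle 1 to 3. The means were 785 ± 74.3 TPM in NMN tumors versus 875 ± 82.9 TPM in Vehicle tumors, with a log2 fold change of -0.16 ± 0.10, a 95% interval of -0.38 to 0.07 and an adjusted p of 0.871 by limma. The gene lies at chr15:44711487-44718877 on the plus strand, outside the MHC. B2M TPM per summed heavy chain TPM was 0.977, 1.21, 0.895 and 1.03 in NMN tumors, against 1.16, 1.02, 0.983 and 0.898 in Vehicle tumors. The light chain and the 4 heavy chains listed stood close to 1 to 1 in both groups, with means of 1.03 ± 0.13 and 1.01 ± 0.11 in NMN and Vehicle tumors and an exact two-sided permutation p of 0.857 (adjusted 0.857).

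TAP1 and TAP2 are the paired subunits of the peptide transporter, and their genes lie near each other in the class II region of the MHC, at chr6:32845209-32853978 and chr6:32821833-32838780, both on the minus strand. TAP1 measured 18.45, 14.3, 19.4 and 24.9 TPM across NMN tumors, against 20.2, 25.2, 21.3 and 35.3 TPM in Vehicle tumors. NMN 1, NMN 2 and NMN 3 lay below every Vehicle tumor and NMN 4 lay within the Vehicle range. The log2 fold change was -0.38 ± 0.20, the most negative of the 9, with a 95% interval of -0.81 to 0.05 and an adjusted p of 0.803 by limma. Without Vehicle 4 it was -0.22, and without NMN 4 it was -0.51.

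TAP2 measured 18.1, 16.3, 19.0 and 24.3 TPM across NMN tumors, against 18.5, 23.4, 19.0 and 33.1 TPM in Vehicle tumors. Its order over the tumors was close to that of TAP1, with NMN 2 lowest and Vehicle 4 highest in both. The log2 fold change was -0.24 ± 0.19 with an adjusted p of 0.916 by limma, and it was -0.07 without Vehicle 4. In the reference transcripts of TAP2, 32.7% of the 50-base words are also found in transcripts of other genes, mainly of the overlapping locus AL669918.1. For the other 8 genes this share was 0% to 6.17%. Such sharing can make the level of TAP2 less certain. Whether the reference used to count reads held that locus was not tested.

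The ratio of TAP1 to TAP2 within a tumor separated the groups. It was 1.019, 0.878, 1.019 and 1.023 in NMN tumors, against 1.091, 1.080, 1.124 and 1.066 in Vehicle tumors, and no value was shared. The mean difference in log2 ratio, NMN minus Vehicle, was -0.15, and each of the 4 NMN tumors lay below every Vehicle tumor. The exact two-sided permutation p was 0.0286, the smallest that 4 tumors against 4 can give, and 0.143 after adjustment over the 5 ratios, so it did not pass. NMN 2 stood apart within its group in this ratio.

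TAPBP, or tapasin, at chr6:33299694-33314387 on the minus strand, measured 66.0, 47.3, 78.7 and 83.7 TPM across NMN tumors, against 70.8, 83.45, 82.6 and 84.6 TPM in Vehicle tumors. The NMN tumors were widely spread, from far below the Vehicle tumors in NMN 2 to near the top of them in NMN 4. The means were 68.9 ± 16.2 TPM and 80.4 ± 6.45 TPM in NMN and Vehicle tumors. The log2 fold change of -0.25 ± 0.16 had an adjusted p of 0.868 by limma and came to -0.08 without NMN 2. The ratio of TAPBP to TAP1 averaged 3.58 in NMN tumors and 3.27 in Vehicle tumors (exact two-sided permutation p = 0.429, adjusted 0.536).

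Promoters of the light chain and of the loading machinery are shown to set the same motif letters beside those of the heavy chains. The windows are chr15:44711267-44711536 (plus strand) for B2M, chr6:32853685-32853954 (minus strand) for the upstream one of TAP1's 2 listed start sites and chr6:33314059-33314328 (minus strand) for TAPBP, again RefSeq GRCh38.p14, 5′ to 3′, with motif matches in capitals.
B2M: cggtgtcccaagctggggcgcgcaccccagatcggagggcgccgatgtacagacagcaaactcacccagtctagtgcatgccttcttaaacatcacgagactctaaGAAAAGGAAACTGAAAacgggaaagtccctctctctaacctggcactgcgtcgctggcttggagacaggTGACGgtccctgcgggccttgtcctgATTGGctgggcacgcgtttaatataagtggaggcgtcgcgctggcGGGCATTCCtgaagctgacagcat
TAP1: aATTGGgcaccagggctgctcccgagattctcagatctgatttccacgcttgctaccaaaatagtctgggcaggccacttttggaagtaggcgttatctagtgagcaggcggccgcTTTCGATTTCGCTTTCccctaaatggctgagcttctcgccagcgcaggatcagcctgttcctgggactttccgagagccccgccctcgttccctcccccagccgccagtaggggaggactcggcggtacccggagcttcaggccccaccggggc
TAPBP: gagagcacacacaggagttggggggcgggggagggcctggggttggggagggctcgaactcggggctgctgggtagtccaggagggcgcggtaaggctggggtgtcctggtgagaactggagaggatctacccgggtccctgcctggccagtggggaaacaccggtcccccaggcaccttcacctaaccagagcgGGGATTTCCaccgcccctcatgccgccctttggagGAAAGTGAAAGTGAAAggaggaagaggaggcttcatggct
B2M held 2 overlapping ISRE matches between -144 and -129, an X2 core match, a Y box and a kappaB match that spans the start site at -4 to 4. TAP1 held 2 overlapping ISRE matches on the opposite strand between -134 and -119, and a Y box at the far end of the window. TAPBP held 2 overlapping ISRE matches close to the start, between -20 and -5, and a kappaB match at -55 to -47. TAP2 held an ISRE match at -58 to -49 and an X2 core match. ISRE and kappaB letters stood together in the windows of B2M and TAPBP and in 0.214% of all windows. Of the 7 genes with a window, 5 held an ISRE match, and HLA-B and HLA-C did not; no match says only that these letters are not in this window.

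**Figure D2:**
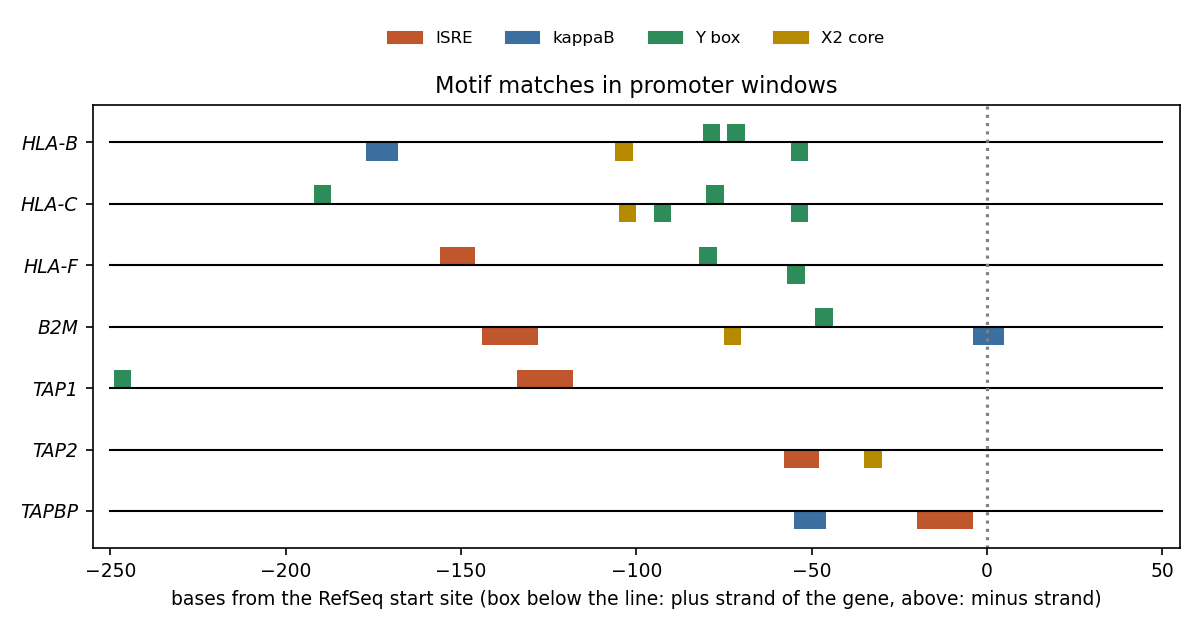
Motif matches in the promoter windows of 7 class I presentation genes, by distance in bases from the RefSeq start site (dotted line). Boxes below each line are matches on the gene's own strand and boxes above it on the opposite strand; 5 of the 7 hold an ISRE box (orange).

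NLRC5, the class I transactivator, at chr16:56989485-57083531 on the plus strand, measured 4.83, 3.67, 5.56 and 7.23 TPM across NMN tumors, against 6.57, 5.59, 5.45 and 7.65 TPM in Vehicle tumors. NMN 1 and NMN 2 lay below the Vehicle tumors and the other two NMN tumors among them. The means were 5.32 ± 1.49 and 6.32 ± 1.02 TPM in NMN and Vehicle tumors, with a log2 fold change of -0.23 ± 0.19 and an adjusted p of 0.921 by limma. At this low level the log2(TPM + 1) scale understates a change. Without NMN 2 the fold change was -0.09.

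Read tumor by tumor, the extremes of the 9 genes came from a few tumors. Vehicle 4 held the highest value of 8 of the 9 genes, all but HLA-E, where 16.85% of all tested genes had their highest value in that tumor. NMN 2 held the lowest value of 5 of the 9 genes (HLA-C, TAP1, TAP2, TAPBP and NLRC5), against 26.1% of all tested genes. Of the 36 values of the 9 genes in NMN tumors, 16 lay below the Vehicle range, 19 within it and 1 above it. NMN 1 was below the Vehicle range in 7 genes and NMN 2 in 6, against 2 genes in NMN 3 and 1 gene in NMN 4. The mean deviation of the 9 genes from their average over the 8 tumors was -0.19, -0.29, 0.04 and 0.08 on the log2 scale in NMN 1 to NMN 4, against -0.07, 0.05, -0.02 and 0.40 in Vehicle 1 to Vehicle 4. The groups overlapped in this measure, and Vehicle 4 lay outside all other tumors. With Vehicle 4 left out the median fold change of the 9 genes was -0.10, and with NMN 2 left out it was -0.09, against -0.23 with all tumors.

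**Figure D3:**
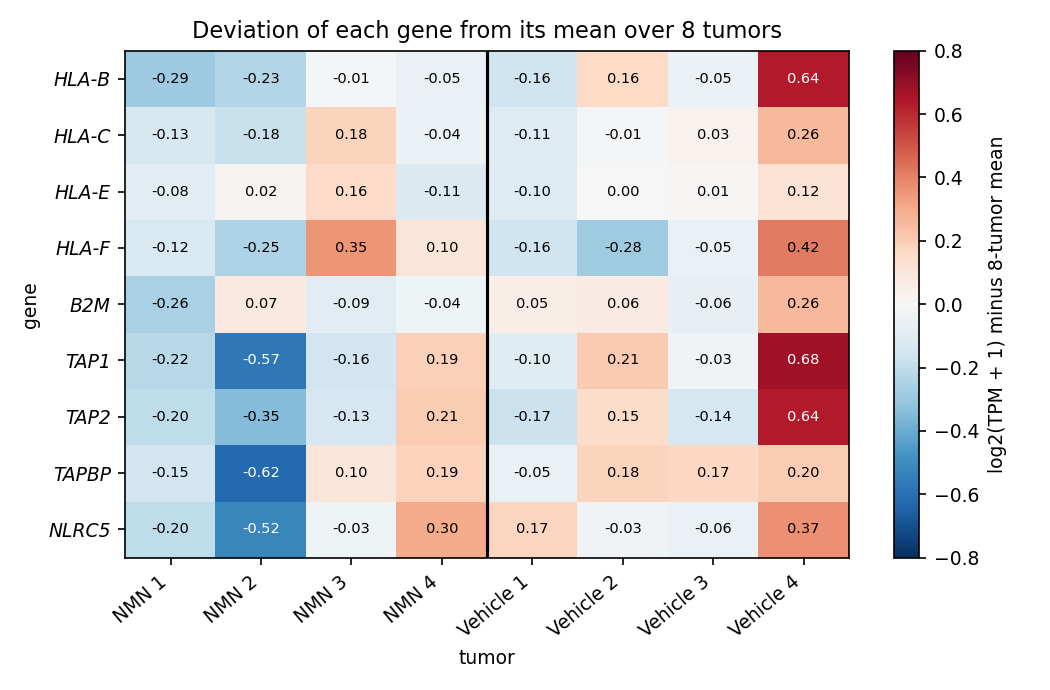
Deviation of each of the 9 genes from its own mean over the 8 tumors, in log2(TPM + 1) units (color scale), with tumors in columns and genes down the page. The column of Vehicle 4 is positive for all 9 genes, up to 0.68 for TAP1, and NMN 2 is most negative for TAPBP at -0.62.

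The genes whose pattern over the 8 tumors was most like that of a member were sought among 10806 tested genes with a mean of at least 5 TPM, by the root mean square difference of centred log2(TPM + 1) values. For HLA-B the nearest was WARS1, the tryptophanyl-tRNA synthetase, an interferon-gamma-induced gene, at a difference of 0.035, where the deviation of HLA-B itself was 0.27. The next were LRRC8A (0.083), GPR153, MMP14 and IGFBP2 (0.10). WARS1 averaged 80.3 TPM in NMN tumors versus 99.8 TPM in Vehicle tumors. For TAP1 the 5 nearest were EFNB1 (0.068), PRSS23, SLC35F6, TAP2 (0.097) and CDH3 (0.098), against its own deviation of 0.34. For B2M they were PTS and DGKA (both 0.068), then POMP, which helps assemble proteasomes, PSMB7, a proteasome subunit, and KPNA3 (0.077), against its own 0.14. For NLRC5 they were UPF1 and INAVA (both 0.080), CHST15, GATD1 and MRPL52 (0.098), against 0.27. Within the 9 genes, TAP2 ranked 4 among the candidates nearest to TAP1, and TAP1 ranked 8 among those nearest to TAP2. HLA-B and TAP2 differed by 0.12, with TAP2 at rank 17 for HLA-B. HLA-C and HLA-E, which varied little over the tumors, differed by 0.092, at ranks 60 and 69.

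Other steps of the pathway were read from lists of genes. The immunoproteasome replaces proteasome subunits in cells exposed to interferon, and PA28 is its activator. Their list had 7 tested genes, among them the assembly factor POMP and the proteasome inhibitor PSMF1. A lower NMN mean was seen in 6 of them, all but PSMF1, and 0 were called, with a median log2 fold change of -0.27. Of the 7, 4 had an unadjusted p under 0.05 with the lower mean in NMN tumors, where 2.15% of all tested genes did. PSMB9 (LMP2), the neighbor of TAP1, measured 11.5, 11.8, 12.7 and 12.7 TPM across NMN tumors, against 13.8, 17.0, 16.1 and 19.1 TPM in Vehicle tumors. Its groups did not overlap, with a log2 fold change of -0.40 ± 0.13 and an adjusted p of 0.459 by limma. PSME2 (PA28 beta) also did not overlap, at 381 ± 33.6 TPM in NMN tumors versus 459 ± 22.3 TPM in Vehicle tumors, with a log2 fold change of -0.27 ± 0.09 (adjusted p = 0.471). No overlap with lower NMN values was seen in 0.966% of all tested genes. PSMB8 (LMP7), between TAP1 and TAP2, averaged 39.8 ± 3.71 and 49.7 ± 4.03 TPM in NMN and Vehicle tumors, with the groups meeting at 44.0 TPM. PSMB10 (MECL-1) averaged 26.9 ± 3.15 and 35.4 ± 5.07 TPM in NMN and Vehicle tumors. None of the 4 passed after adjustment. The count of 6 of 7 was 6 without NMN 4 and 7 without Vehicle 4, where PSMF1 also had the lower mean. In this list the lower means did not rest on Vehicle 4.

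**Figure D4:**
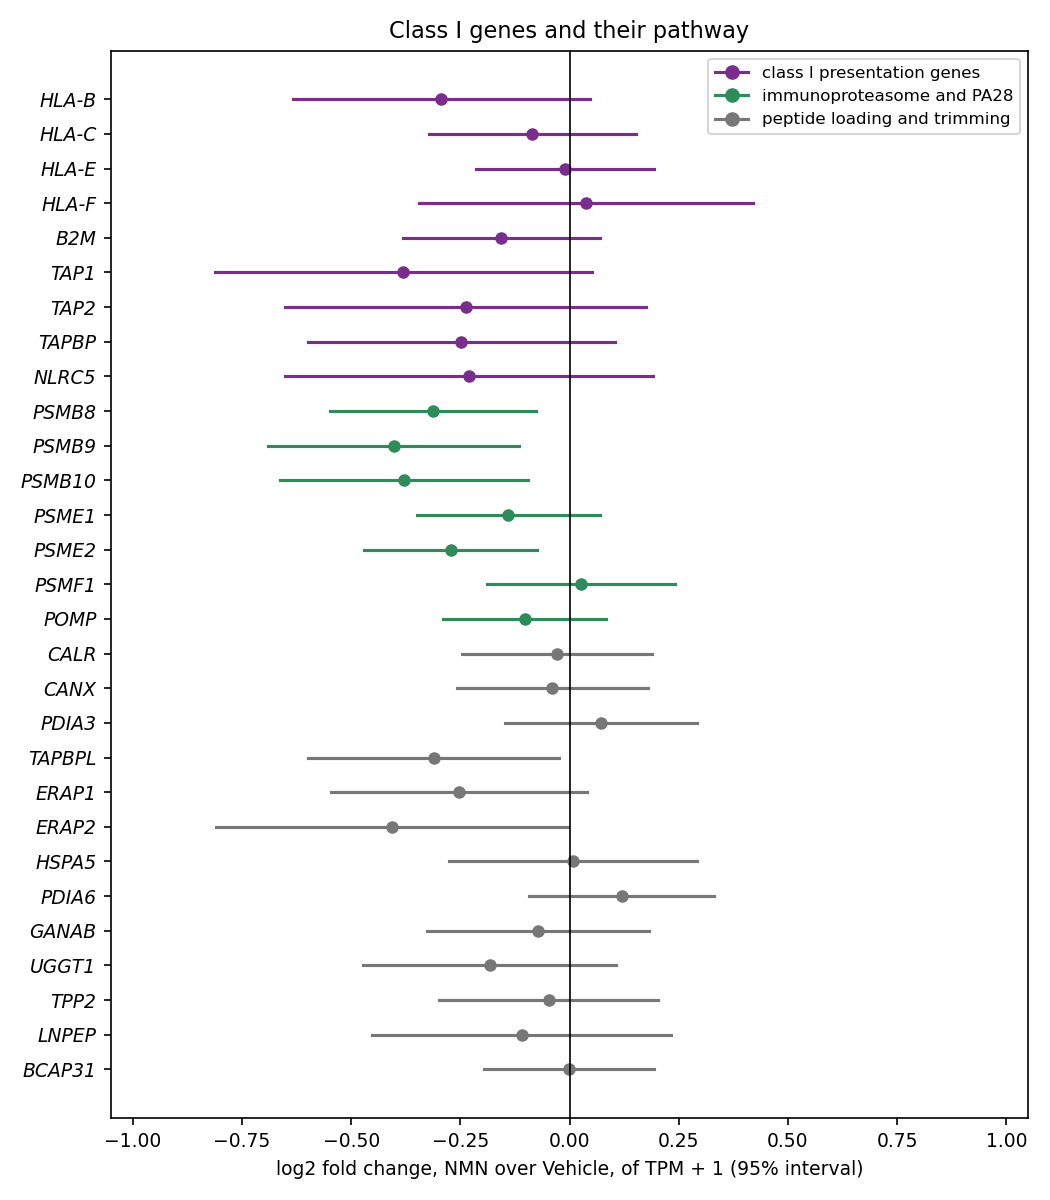
Log2 fold change of TPM + 1, NMN over Vehicle, with its 95% interval from limma, for the 9 class I presentation genes (purple), the immunoproteasome and PA28 list (green) and the loading and trimming list (gray). All 9 purple intervals cross 0, and among the green ones those of PSMB8, PSMB9, PSMB10 and PSME2 do not before adjustment over genes.

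The chaperones and trimming enzymes of peptide loading had 13 tested genes, with 10 lower means and 3 higher means in NMN tumors, 0 called and a median log2 fold change of -0.05. ERAP1 and ERAP2, the aminopeptidases that trim peptides in the endoplasmic reticulum, averaged 10.9 ± 0.75 and 4.09 ± 0.74 TPM across NMN tumors, against 13.2 ± 1.75 and 5.78 ± 1.30 TPM in Vehicle tumors. The groups did not overlap in ERAP1 and overlapped in ERAP2, with adjusted p of 0.805 and 0.715 by limma. TAPBPL (TAPBPR), a peptide editor related to tapasin, averaged 19.5 ± 1.56 TPM in NMN tumors versus 24.5 ± 3.85 TPM in Vehicle tumors, with an adjusted p of 0.673 by limma. UGGT1, which checks the folding of glycoproteins, averaged 24.9 ± 3.96 TPM in NMN tumors versus 28.2 ± 2.35 TPM in Vehicle tumors. The chaperone calreticulin (CALR) averaged 976 ± 108 TPM in NMN tumors versus 993 ± 48.8 TPM in Vehicle tumors.

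Listed regulators of class I transcription were split, and the list mixes activators with the repressive chromatin factors EZH2, EED and SUZ12. Of 20 tested regulators 9 had the lower mean and 11 the higher mean in NMN tumors. A negative fold change was seen in 49.0% of all tested genes. Of the 20, 0 were called, and the median log2 fold change was 0.05. IRF1, which binds interferon elements of class I genes, measured 7.87, 5.37, 7.55 and 8.02 TPM across NMN tumors, against 9.80, 12.5, 8.37 and 10.5 TPM in Vehicle tumors. Its groups did not overlap, with a log2 fold change of -0.46 ± 0.17 and an adjusted p of 0.553 by limma. RFXAP and NFYB, subunits of the factors that bind the X and Y boxes, averaged 7.19 ± 1.35 and 23.7 ± 1.58 TPM across NMN tumors, against 5.82 ± 1.03 and 21.0 ± 4.23 TPM in Vehicle tumors.

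Interferon signaling was read from 2 lists. Of 15 tested genes of interferon gamma signaling, 9 had a lower NMN mean, 0 were called and the median log2 fold change was -0.07. IFNGR2, a receptor chain, averaged 70.4 ± 7.32 TPM in NMN tumors versus 58.7 ± 6.21 TPM in Vehicle tumors (adjusted p = 0.687), and the guanylate-binding protein GBP4 averaged 1.27 ± 0.21 TPM in NMN tumors versus 2.02 ± 0.34 TPM in Vehicle tumors (adjusted p = 0.608). Of 40 tested genes of the type I interferon response, 37 had a lower NMN mean and 0 were called, with a median of -0.33, and 32 of 40 had the lower mean without Vehicle 4. An unadjusted p under 0.05 with the lower NMN mean was seen in 12 of the 40, where 2.15% of all tested genes had one. Without Vehicle 4 it was seen in 7 of the 40, and without NMN 4 in 22, of which 1 was called. Over all 13358 tested genes an unadjusted limma p under 0.05, in either direction, was seen in 835 without Vehicle 4 and 1276 without NMN 4. With all tumors it was seen in 927, and without NMN 4 the test called 54 genes. OAS2, an oligoadenylate synthetase, had a log2 fold change of -0.73 ± 0.17 (adjusted p = 0.268 by limma), with means of 22.1 ± 6.00 and 36.7 ± 5.32 TPM in NMN and Vehicle tumors. IFITM3, a membrane protein that restricts virus entry, averaged 362 ± 29.8 TPM in NMN tumors versus 497.5 ± 92.5 TPM in Vehicle tumors (adjusted p = 0.348), and SAMD9L, another restriction factor, averaged 1.82 ± 0.21 TPM in NMN tumors versus 3.08 ± 0.74 TPM in Vehicle tumors (adjusted p = 0.471). The groups did not overlap in these 3 genes, which were named for their small p, nor in SAMD9, and they overlapped in ISG15. No overlap with lower NMN values was seen in 0.966% of all tested genes. The ubiquitin-like ISG15 averaged 45.3 ± 8.70 TPM in NMN tumors versus 71.4 ± 22.6 TPM in Vehicle tumors (adjusted p = 0.471). The mean deviation of this list was -0.27, -0.20, -0.23 and 0.07 in NMN 1 to NMN 4, against 0.10, -0.03, 0.09 and 0.47 in Vehicle 1 to Vehicle 4, so Vehicle 4 was the highest tumor here as it was for 8 of the 9 class I genes. The part of interferon signaling in the class I values was not tested.

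**Figure D5:**
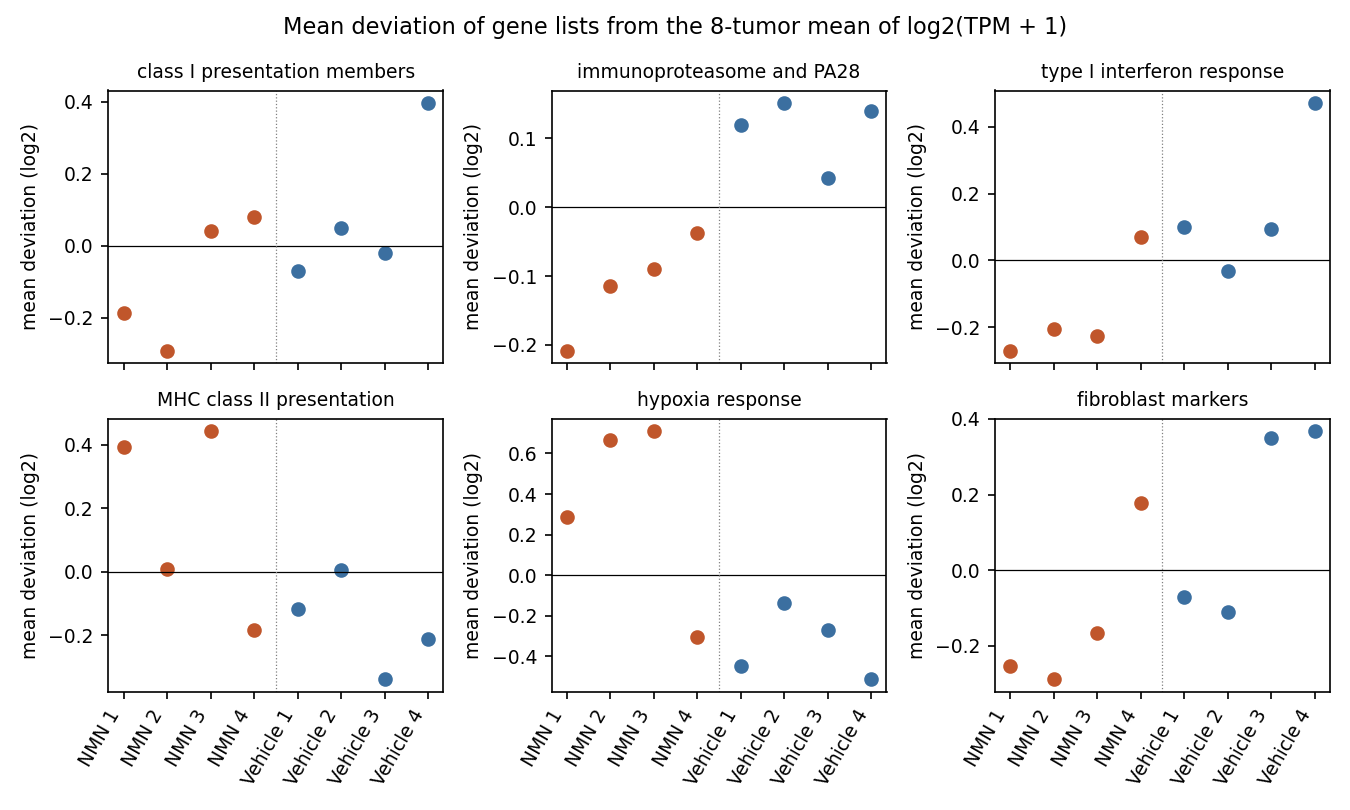
Mean deviation of 6 gene lists from their average over the 8 tumors, in log2(TPM + 1) units, with NMN tumors (orange) left of Vehicle tumors (blue) and a separate vertical scale in each panel. Vehicle 4 is highest for the class I presentation genes (0.40) and the type I interferon response (0.47), while all 4 NMN tumors lie below the Vehicle tumors for the immunoproteasome and PA28.

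Other measures were read from further lists of genes. Of the 12 epithelial markers, 8 had a higher NMN mean and 0 were called, with a median of 0.27 for their log2 fold changes. An unadjusted p under 0.05 was reached by 4 of the 12 (KRT8, EPCAM, KRT18 and KRT7), each with the higher NMN mean, where 6.94% of all tested genes reached one in either direction. Without NMN 4 it was reached by 2 of the 12, and likewise by 2 without Vehicle 4. In those settings 1276 and 835 of all 13358 tested genes reached one in either direction. KRT8 measured 879, 707, 909 and 841 TPM across NMN tumors, against 542, 315, 537 and 265 TPM in Vehicle tumors, without overlap (adjusted p = 0.221 by limma). Vehicle 4, the highest tumor of 8 of the 9 class I genes, was the lowest of all 8 in KRT8, EPCAM, KRT18 and KRT7 and the highest in KRT5, KRT14 and KRT17. Of 7 tested fibroblast genes, 5 had a lower NMN mean, and the summed TPM of the 12 listed was 198 to 314 in NMN tumors and 255 to 362 in Vehicle tumors, with Vehicle 4 highest. Most of this sum came from COL1A1, COL1A2, COL3A1 and FBLN1, while DCN, LUM and THY1 were at most 0.05 TPM in any tumor. FBLN1 and FBLN2 had the higher NMN mean. Of 25 hypoxia response genes, 25 had a higher NMN mean (median log2 fold change 0.70), where 49.0% of all tested genes had a negative fold change. The lists were chosen with earlier results of these data known, so this count carries no test. An unadjusted limma p under 0.05 was reached by 20 of the 25, and 0 were called. Without NMN 4 it was reached by 23 and 7 were called, where 54 of all 13358 tested genes were called. NMN 4 lay among the Vehicle tumors in the mean deviation of the hypoxia genes. Summed myeloid markers overlapped, at 4110 to 8418 TPM in NMN tumors and 4030 to 9982 TPM in Vehicle tumors, nearly all of it from S100A8 and S100A9, and the pan-leukocyte gene PTPRC was at most 0.39 TPM in any of the tumors. Of 16 tested skeletal muscle genes, 15 had a lower NMN mean and 1, MB, the higher mean, with 0 called by limma and a median log2 fold change of -3.01. All 15 had an unadjusted p under 0.05, where 2.15% of all tested genes had one with the lower NMN mean. Without NMN 4, 13 of the 16 were called, where 54 of all 13358 tested genes were. The part of these measures in the class I values was not tested.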

How the data were processed

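RNA sequencing of 8 whole tumors was used. The deposited table gives TPM per gene by symbol and Entrez identifier, per the file headers; each library sums to 1000000, which leaves depth and counting error unknown. Tools listed in the submitters' processing notes, without roles, are RSEM 1.2.8, Bowtie2 2.2.5 and HISAT2 2.1.0, with build GRCh38.p13; per the labels' protocols, RNA had an integrity number above 8.5. The sources used here say neither how mouse reads were handled nor whether counting used strand; mouse reads, or reads shared among HLA genes, can therefore contribute to a value.

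From these values, log2(TPM + 1) was computed, genes with TPM of at least 1 in at least 4 libraries were kept (13358 of 18164), and limma 3.58.1 (R 4.3.3) was fitted on group with a trend of variance on mean, two-sided, with Benjamini-Hochberg adjustment at 0.05. The test was tested on simulated data in which each gene varied on its own. Shifts shared by many genes of a tumor were not simulated. Fold changes are NMN over Vehicle. Ratios within a tumor were compared by exact permutation. The text names the 9 genes, up to 4 genes of smallest unadjusted p per list and those needed to describe it, and the 5 genes of most similar pattern. The members and lists were chosen with earlier results of these data known. Promoters are those of RefSeq GRCh38.p14, searched on both strands. A list gene and a motif searched are not reported here.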

Additional observations from a re-analysis of the deposited data

Results flagged for a closer look

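In groups of 4 tumors, the highest or lowest tumor was set against the other 3 by Dixon's ratio. Of 82 groups of values checked 5 stood out, and chance gives about 1 in 20. TAPBP was 70.77 TPM in Vehicle 1, against 82.62 to 84.64 TPM in the other Vehicle tumors. The TAP1 to TAP2 ratio was 0.8777 in NMN 2, against 1.019 to 1.023 in the other NMN tumors. HLA-G, the nonclassical heavy chain of the placenta, was 11.19 TPM in NMN 1, against 0.18 to 0.99 TPM in the other NMN tumors and 0.24 to 1.40 TPM in the Vehicle tumors; how far its reads are shared with other heavy chains was not tested. ERAP1 was 15.87 TPM in Vehicle 3, against 12.26 to 12.53 TPM in the other Vehicle tumors. RFXAP was 7.34 TPM in Vehicle 3, against 5.08 to 5.43 TPM in the other Vehicle tumors.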

How the results depend on the processing

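Of the 9 genes, 0 passed under any of the 18 alternatives, with adjusted p from 0.425 (TAP1) to 1.0. With pseudocounts, filters, scaling, trend and variance settings changed, 8 of the 9 had the lower NMN mean in each and their median ran from -0.25 to -0.16. With 1 tumor left out, 7 to 9 had the lower mean and the median ran from -0.33 (without NMN 4) to -0.09 (without NMN 2). HLA-B ran from -0.40 to -0.13, HLA-C from -0.16 to -0.01, B2M from -0.21 to -0.10, TAP1 from -0.51 to -0.22, TAP2 from -0.35 to -0.07, TAPBP from -0.35 to -0.08 and NLRC5 from -0.37 to -0.09. HLA-E changed sign, to 0.02 without NMN 1, 0.02 without NMN 4 and 0.03 without Vehicle 4, within a range of -0.065 to 0.026. HLA-F changed sign, to -0.073 without NMN 3, -0.01 without Vehicle 1 and -0.05 without Vehicle 2, within a range of -0.073 to 0.18. The cause was not tested.

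Over all genes, 54 were called with library weights, and with 1 tumor left out 0 to 54, where 54 came without NMN 4 and 1 without Vehicle 3. With the replicate number as a block 2 genes were called and the median of the 9 was -0.23. Deviations of same-numbered tumors were correlated at 0.026, 0.001, -0.032 and -0.123, and those of differently numbered tumors at -0.278 to 0.194. Whether the numbers pair the tumors cannot be told from these values. Chosen after seeing the data, the counts of lower means in each list were repeated without NMN 4 and without Vehicle 4, and the epithelial marker count fell to 2 of 12 without Vehicle 4, against 4 of 12. TPM without counts limits what can be said of low genes such as NLRC5.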

Other observations

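Class II molecules present peptides to CD4+ T cells. Of 15 listed genes 8 passed the filter, of which 7 had a higher NMN mean and 0 were called by limma, with a median log2 fold change of 0.29. At an unadjusted p under 0.05 likewise 0 of the 8 passed, where 6.94% of all tested genes did. Without NMN 4 it was 3 of the 8, each with the higher NMN mean, where 1276 of 13358 tested genes passed in either direction. HLA-DRB1 measured 17.0, 3.04, 5.20 and 0.99 TPM across NMN tumors, against 1.38, 3.03, 1.31 and 0.53 TPM in Vehicle tumors, with NMN 1 far above the other tumors; DRB genes are near copies of each other, and how their reads were split was not tested. HLA-DRA averaged 2.40 ± 1.56 TPM in NMN tumors versus 1.09 ± 0.58 TPM in Vehicle tumors (adjusted p = 0.805 by limma), and HLA-DQB1 averaged 2.46 ± 1.01 and 1.67 ± 0.50 TPM in NMN and Vehicle tumors. HLA-DMA, which helps load class II molecules, averaged 6.06 ± 0.89 TPM in NMN tumors versus 4.83 ± 1.14 TPM in Vehicle tumors. CIITA, the class II counterpart of NLRC5, was under 1 TPM in all 8 tumors. Whether the class I and class II lists differ in direction was not tested.

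Class I-like genes and ligands of the NK receptor NKG2D were split, with 6 lower and 8 higher means in NMN tumors among 14 tested, 0 called and a median log2 fold change of 0.05; without NMN 4 the split was 9 lower and 5 higher. AZGP1, a secreted protein with a class I-like fold, measured 365, 416, 638 and 613 TPM across NMN tumors, against 386, 227, 364 and 197 TPM in Vehicle tumors, with a log2 fold change of 0.81 ± 0.24 and an adjusted p of 0.374 by limma. PROCR, the endothelial protein C receptor, averaged 4.605 ± 0.47 and 3.04 ± 1.72 TPM in NMN and Vehicle tumors. The NKG2D ligands RAET1G and RAET1E averaged 12.5 ± 2.27 and 12.5 ± 0.73 TPM across NMN tumors, against 17.4 ± 3.99 and 16.8 ± 4.205 TPM in Vehicle tumors.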
